A study of Bos taurus with 6 samples.

Results

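Mitochondrial fatty acid beta-oxidation was followed through 10 of its enzymes, chosen by gene name among the 32183 genes listed for rumen epithelial primary cells (REPC): CPT1A, CPT1B, CPT2, ACADS, ACADM, ACADL, ACADVL, HADHA, HADHB and ECHS1. Each name occurred on 1 row, and all 10 genes passed the filter on low values. REPC were grown from the rumen epithelium of a single Holstein bull calf, aged 2 weeks and fed only milk replacer. RNA was sequenced from 3 control cultures and from 3 cultures given 5 mM butyrate for 24 h. The cultures share 1 animal, so the p-values measure the spread between cultures of that animal's cells.

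Long-chain fatty acids cross the mitochondrial membranes bound to carnitine, a transfer that CPT1 starts on the outer membrane and CPT2 completes on the inner membrane. In the matrix each round of oxidation begins with an acyl-CoA dehydrogenase chosen by chain length, and hydration, a second oxidation and thiolysis follow. For long chains the last 3 reactions belong to the trifunctional protein made of HADHA and HADHB. For short chains they are carried out by separate soluble enzymes, of which ECHS1 is the hydratase. Butyrate is a short-chain acid, a main fuel of the rumen wall and an inhibitor of histone deacetylases, and it enters the matrix without the carnitine shuttle. The members were therefore read as short-chain steps (ACADS and ECHS1), a medium-chain step (ACADM) and 7 long-chain steps.

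Expression is given as FPKM, a fragment number scaled by transcript length and by the mapped fragments of the library, so that levels can be compared between genes. Total FPKM per culture ranged from 678035 to 681912 in control and from 619401 to 629037 after butyrate. The 8 epithelial markers were all detected, with a sum of 2417 to 2527 FPKM in control and of 5041 to 5123 FPKM after butyrate. Of these, 6 were called higher and 1 lower (calls as defined below), beside 32.5% and 25.9% of all genes tested. By log2 fold change the largest rises were those of KRT14 (mean FPKM 72.5 to 500.0) and EPCAM (0.540 to 3.33). KRT8 (1380 to 1971) and KRT19 (492.3 to 1953) were also called higher. KRT5 was called lower (400.8 to 355.9), and CDH1 was not called (49.8 to 48.9). The sum of 8 fibroblast markers went from 1924 to 1982 FPKM in control to 2789 to 3038 FPKM after butyrate, and that of 6 muscle markers from 908.8 to 937.8 FPKM to 209 to 255.7 FPKM. The fibroblast sum was made up mostly of COL1A1 (mean FPKM 1149 to 1941), COL1A2 (459.3 to 533.0) and COL3A1 (313.3 to 369.8). LUM (0.149 to 0.541), PDGFRA (0.306 to 0.967) and PDGFRB (0.0203 to 0.0821) were low in both groups. The muscle sum was made up mostly of CNN1 and ACTA1, which fell with MYH11, whereas DES and CKM rose at low levels. The immune marker PTPRC and the endothelial marker CDH5 were listed at 0 in every culture. Of the other immune and endothelial markers CD68 (mean FPKM 0.595 to 1.21), PECAM1 (1.54 to 3.95) and VWF (0.456 to 3.31) rose, and CD14 (5.57 to 6.80) was not called. CD3E and KDR were too low to be tested, with at most 0.178 and 0.0146 FPKM in a culture. The part of these marker changes in the results was not tested, and in bulk RNA a change in the number of cells of a type and a change in RNA per cell cannot be told apart.

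After butyrate, ACADVL rose 1.70-fold and became the most abundant member, CPT1B rose from a very low level and CPT2 rose slightly, while ECHS1 and ACADL fell to about 0.744 and 0.727 of control. HADHA, HADHB, ACADM, ACADS and CPT1A were not called. Fold changes were taken on log2(FPKM + 0.1), a scale on which changes of weakly expressed genes come out too small, and a gene was called at a Benjamini-Hochberg adjusted p under 0.05 from limma. Of the 10 members, 3 were called higher and 2 lower, beside 32.5% and 25.9% of all 15813 genes tested, so the share of members called was near the background of 58.4%. The butyrate and control values did not overlap in 8 members, against 65.0% of all genes. The median absolute log2 fold change was 0.16 over the members and 0.57 over all genes tested. None of the 10 members met the study's thresholds for a differentially expressed gene when these were applied to the limma fit. The thresholds were a Bonferroni-corrected p under 0.05 with a log2 fold change beyond 2, and 3.97% of all genes tested met them. The study applied its thresholds to a test by Cufflinks, so 3.97% is not its own share. In limma, 7 members had an unadjusted p under 0.05 and 1, ACADVL, a Bonferroni-corrected p under 0.05.

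**Figure D1:**
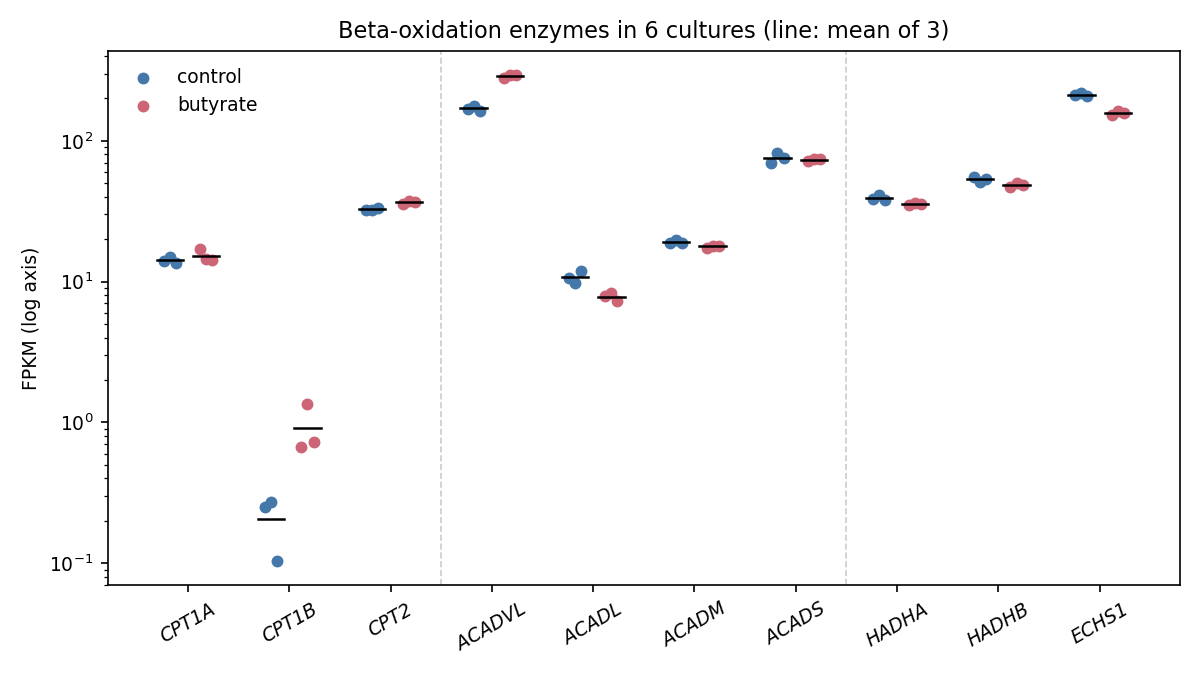
FPKM of each enzyme (log axis) in the 3 control and 3 butyrate cultures, with points for cultures and a line for the mean, ordered as carnitine transfer, dehydrogenases from very long to short chain, and later steps. ACADVL and ECHS1 exchange the top places, from means of 170.0 and 212.8 in control to 288.9 and 158.2 after butyrate, and CPT1B lies far below the rest.

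In control REPC the enzymes spanned a wide range of levels. ECHS1 was highest with a mean FPKM of 212.8, followed by ACADVL (170.0), ACADS (75.5), HADHB (53.5), HADHA (39.4), CPT2 (32.6), ACADM (19.1), CPT1A (14.2), ACADL (10.8) and CPT1B (0.207). No neighbours in this order had overlapping culture values. In butyrate the order differed in that ACADVL stood above ECHS1 and CPT2 above HADHA, and the values of CPT2 and HADHA overlapped. By its mean over the 6 cultures ACADVL was above 96.6% of the genes tested, ECHS1 above 95.8% and ACADS above 90.2%, whereas CPT1B was above 17.3%.

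CPT1A encodes the broadly expressed, liver-type carnitine palmitoyltransferase of the outer membrane and lies on chromosome 29 from 46820297 to 46880905 (UMD3.1, as named in the submitters' processing notes). It had FPKM values of 14.01, 14.95 and 13.52 in control and of 17.12, 14.55 and 14.26 after butyrate, here and below in the order of replicates 1 to 3. Butyrate replicate 1 was the highest culture, and the other butyrate values lay within the control range. The log2 fold change was 0.11 with a 95% interval from -0.11 to 0.33 (limma, Benjamini-Hochberg adjusted p = 0.354).

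CPT1B, the muscle-type form of the same enzyme, lies on chromosome 5 from 120098389 to 120106718. Its FPKM was 0.249, 0.270 and 0.104 in control and 0.668, 1.35 and 0.720 after butyrate, so every butyrate culture was above every control culture. The log2 fold change of 1.71 (SE 0.39) had a Benjamini-Hochberg adjusted p of 0.00529 in limma, and the group means stood at a ratio of 4.40. The deposited lower confidence bound was 0 in the 3 control cultures, and the bounds, taken as 2 standard deviations, imply between 0.962 and 29.3 fragments per culture, an approximation. The call ended with quantile normalization, at a log2 fold change of 1.00 (limma, Benjamini-Hochberg adjusted p = 0.0592), and a pseudocount of 1 in place of 0.1 lowered the log2 fold change to 0.65. Its neighbour CHKB lies 425 bases away and went from a mean FPKM of 41.7 to 33.0. Whether reads of CHKB were counted for CPT1B was not tested. Of the muscle markers, DES (mean FPKM 0.367 to 1.599, log2 fold change 2.07) and CKM (0.0754 to 0.422, 1.64) were called higher like CPT1B, while CNN1, ACTA1 and MYH11 were called lower, and their part was not tested. Even after butyrate CPT1B stood at a mean of 0.913 FPKM beside 15.3 FPKM for CPT1A.

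CPT2, which hands the acyl group back to coenzyme A inside the matrix, lies on chromosome 3 from 93601357 to 93625434. It had FPKM values of 32.1, 32.1 and 33.6 in control and of 35.4, 37.3 and 37.0 after butyrate, with no overlap between groups. The log2 fold change of 0.16 (SE 0.057) had a Benjamini-Hochberg adjusted p of 0.0355 in limma. This call rested on single cultures and ended without control replicate 1 (log2 fold change 0.15), control replicate 2 (0.15), butyrate replicate 2 (0.15) or butyrate replicate 3 (0.16), and also in limma without the trend.

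The 4 acyl-CoA dehydrogenases catalyse the same first oxidation on chains of different length. ACADVL rose, ACADL fell, and ACADM and ACADS were not called. ACADVL, the membrane-bound enzyme for very long chains, lies on chromosome 19 from 27568180 to 27573378. It had FPKM values of 169, 178 and 163 in control and of 280, 293 and 293 after butyrate. The groups lay far apart relative to their spread, with means of 170.0 ± 7.81 and 288.9 ± 7.52 (SD, n = 3 each). The log2 fold change of 0.77 (SE 0.046) had a Benjamini-Hochberg adjusted p of 2.12e-06 in limma, and it stayed between 0.73 and 0.94 under each alternative run. DVL2 lies 74 bases from ACADVL and rose from a mean FPKM of 2.62 to 6.39, with a log2 fold change of 1.26. The strand setting of the counting is not given in the sources used here, and whether reads were shared between these neighbours was not tested.

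ACADL, the long-chain dehydrogenase, lies on chromosome 2 from 98416082 to 98457047 and was the lowest of the 4. Control cultures had 10.6, 9.80 and 11.9 FPKM and butyrate cultures 7.89, 8.25 and 7.27 FPKM. All butyrate values lay below the control values, and the log2 fold change of -0.46 (SE 0.11) had a Benjamini-Hochberg adjusted p of 0.00587 in limma. The long-chain and very-long-chain dehydrogenases thus changed in opposite directions, both past the threshold.

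ACADM, the medium-chain dehydrogenase, lies on chromosome 3 from 69344151 to 69382579. Its FPKM was 18.9, 19.7 and 18.8 in control and 17.4, 18 and 17.9 after butyrate. The groups did not overlap but were close, and the log2 fold change of -0.11 had a 95% interval from -0.26 to 0.05 (limma, Benjamini-Hochberg adjusted p = 0.209). ACADS, the short-chain dehydrogenase that takes butyryl-CoA as a substrate, lies on chromosome 17 from 65220576 to 65237486. Its values were 69.6, 81.9 and 75.0 FPKM in control and 72.1, 74.1 and 74.7 FPKM after butyrate. The butyrate cultures all fell inside the control range. Its log2 fold change was -0.03 with a 95% interval from -0.18 to 0.12 (limma, Benjamini-Hochberg adjusted p = 0.688).

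**Figure D2:**
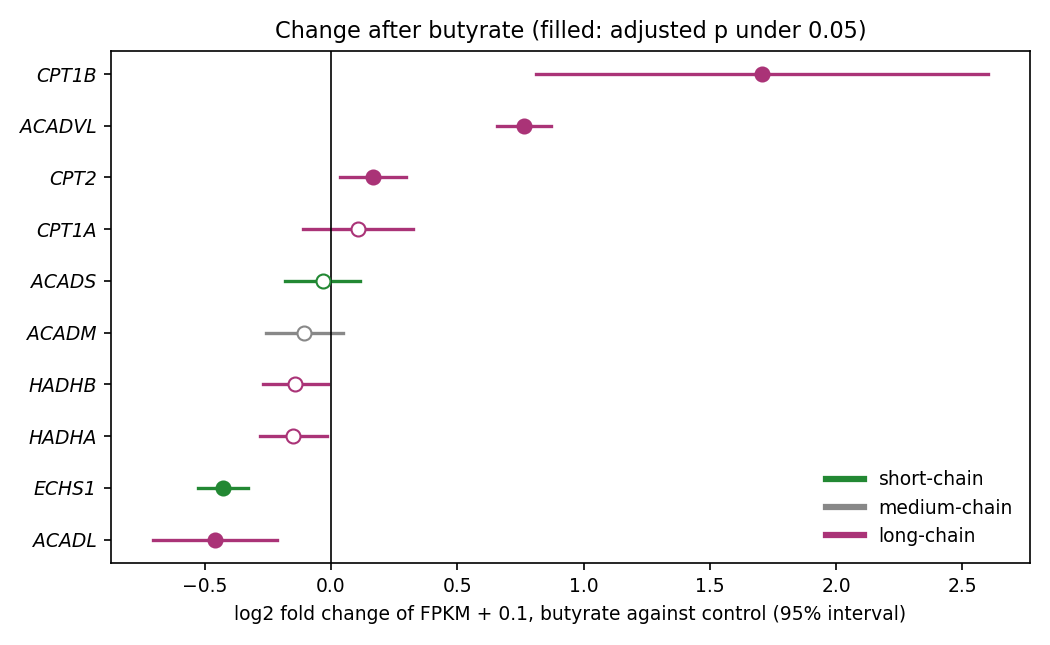
Log2 fold change of FPKM + 0.1 after butyrate for the 10 enzymes (points) with the 95% interval from limma (lines), coloured by chain-length step; filled points passed an adjusted p of 0.05. The long-chain steps span both ends, from -0.46 for ACADL to 1.71 for CPT1B, and neither short-chain step lies above 0.

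HADHA and HADHB encode the alpha and beta subunits of the trifunctional protein, the alpha subunit holding the hydratase and 3-hydroxyacyl-CoA dehydrogenase activities and the beta subunit the thiolase. The genes are neighbours on chromosome 11, HADHB from 73215422 to 73246308 and HADHA from 73251924 to 73288804, with 5616 bases between them. HADHA had 38.6, 41.5 and 38.2 FPKM in control and 35.2, 36.0 and 35.3 FPKM after butyrate. HADHB had 55.4, 51.2 and 53.8 FPKM in control and 46.8, 50.1 and 48.4 FPKM after butyrate. In both genes every butyrate value lay below the controls, by a small margin. Their log2 fold changes were -0.15 and -0.14 with 95% intervals from -0.28 to -0.02 and from -0.27 to -0.01, and both just missed the threshold (limma, Benjamini-Hochberg adjusted p = 0.0555 and 0.058). They were -0.03 and -0.02 after rescaling to TPM and -0.08 and -0.08 with quantile normalization. The difference between the subunits within a culture, on the log2(FPKM + 0.1) scale, was -0.44 ± 0.119 in control and -0.45 ± 0.034 after butyrate (SD, n = 3 each; exact permutation test, two-sided, p = 1), a shift of -0.01 with a standard error of 0.071.

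ECHS1, the short-chain enoyl-CoA hydratase, lies on chromosome 26 from 25856474 to 25865642. It had FPKM values of 212, 219 and 207 in control and of 154, 163 and 158 after butyrate, with means of 212.8 ± 6.08 and 158.2 ± 4.49 (SD, n = 3 each). The groups were well separated, and the log2 fold change of -0.43 (SE 0.043) had a Benjamini-Hochberg adjusted p of 4.35e-05 in limma. Its neighbour PAOX, 148 bases away, was not called, with mean FPKM values of 20.53 and 20.02.

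Summed over their members, the 2 short-chain steps had 282 to 301 FPKM in control and 226 to 237 FPKM after butyrate, and the 7 long-chain steps 314 to 328 FPKM and then 423 to 441 FPKM. The ratio of the short-chain to the long-chain sum was 0.880, 0.917 and 0.899 in the control cultures and 0.533, 0.537 and 0.535 in the butyrate cultures. The lower ratio rested on few genes. ACADVL made up 51.8% to 54.3% of the long-chain sum in control and 66.2% to 67.2% after butyrate, and of the short-chain members ECHS1 fell while ACADS stayed within its control range. By gene, the long-chain steps had 3 members called higher and 1 lower and a median log2 fold change of 0.11, and the short-chain steps had 0 called higher and 1 lower and a median of -0.23. Over all genes tested, 32.5% were called higher and 25.9% lower, and the median was 0.10. Of the long-chain members called higher, CPT1B was at a very low level and the call of CPT2 ended under several alternatives. These sums and medians over chosen genes were not tested.

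Unequal change was tested for 6 pairs of members as the within-culture difference of log2(FPKM + 0.1), by a two-sided exact permutation test over the 20 divisions of the cultures, for which 0.1 is the smallest p that 3 cultures against 3 allow. ACADS minus ACADVL went from -1.17 ± 0.0940 in control to -1.97 ± 0.0136 after butyrate (SD, n = 3 each; exact permutation test, p = 0.1), a shift of -0.80 with a standard error of 0.055. ECHS1 minus HADHA went from 2.43 to 2.15, a shift of -0.28 with a standard error of 0.023 (exact permutation test, p = 0.1). CPT1A minus CPT1B went from 5.58 to 3.98, a shift of -1.60 with a standard error of 0.42 (exact permutation test, p = 0.1). In these 3 pairs the groups did not overlap. The other differences overlapped between groups, ACADS minus ACADM shifting by 0.07 with a standard error of 0.052 (exact permutation test, p = 0.3) and CPT1A minus CPT2 by -0.06 with a standard error of 0.12 (exact permutation test, p = 0.7). Adjusted over the 6 pairs by Benjamini-Hochberg, the lowest exact permutation p was 0.20, so no pair passed.

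**Figure D3:**
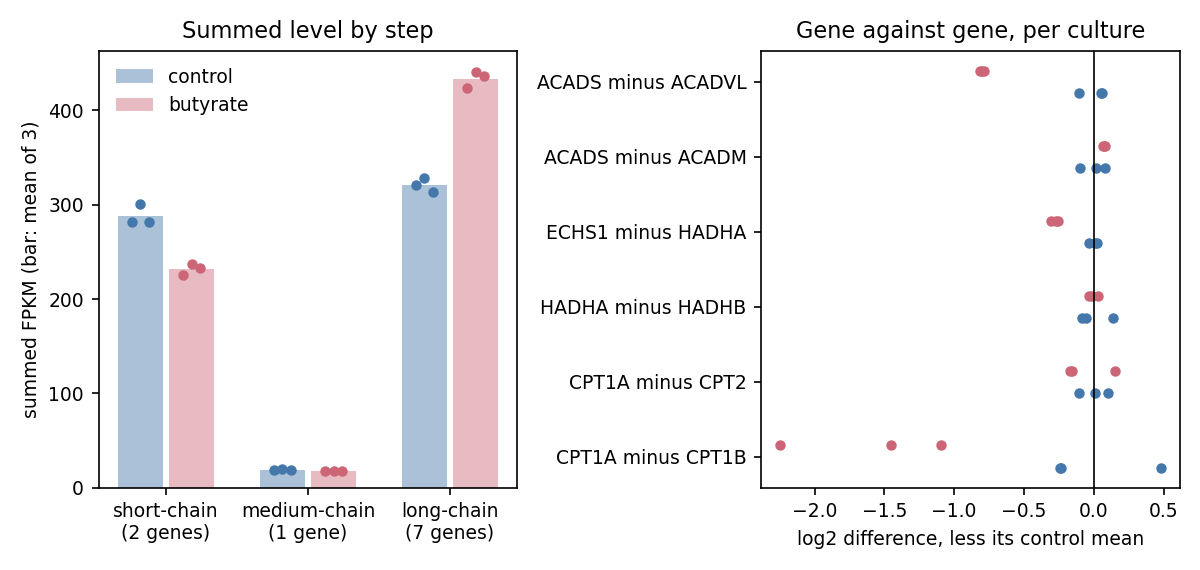
Left, summed FPKM of the short-chain (2 genes), medium-chain (1 gene) and long-chain (7 genes) steps, bars for the mean of 3 cultures and points for cultures; right, the log2 difference between the genes of each pair in each culture, less its control mean. The long-chain sum rises from a mean of 320.7 to 433.5 while the short-chain sum goes from 288.2 to 231.9, and ACADS minus ACADVL shows the 3 butyrate cultures close together near -0.80.

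The remaining mitochondrial genes of the pathway gave 7 of 18 called higher and 4 lower, beside 32.5% and 25.9% of all genes tested. The median log2 fold change of these 18 was 0.08. The largest rises were those of ECI2, which isomerises unsaturated intermediates (mean FPKM 2.07 to 8.04, log2 fold change 1.94), ACADSB, the dehydrogenase for short branched chains (20.6 to 44.5, 1.12), and the thioesterase ACOT13 (20.2 to 39.7, 0.97). The largest falls were those of ACAD9, a dehydrogenase that also serves complex I assembly (29.2 to 6.58, -2.14), HSD17B10, which oxidises short branched hydroxyacyl-CoA and is a part of mitochondrial RNase P (80.3 to 33.8, -1.24), and the thiolase ACAA2 (135.3 to 114.1, -0.24). The call of ACAA2 ended with TPM (-0.12), with quantile normalization (-0.10) and without the trend. The level of ACAD9 is uncertain, since its name is on 2 rows of chromosome 22 between which reads can be split. The other row fell as well, from a mean FPKM of 23.9 to 4.77 (log2 fold change -2.42). The row counted here met the study's thresholds in limma, and its log2 fold change was -1.997 with a pseudocount of 1. HADH, the short-chain hydroxyacyl-CoA dehydrogenase that acts after ECHS1, and ETFDH, which passes the electrons of the dehydrogenases to ubiquinone, were singled out after their values were seen. HADH rose from 46.0, 50.1 and 51.1 FPKM in control to 68.3, 69.2 and 66.7 FPKM after butyrate, with a log2 fold change of 0.47 (limma, Benjamini-Hochberg adjusted p = 0.000129), so that 2 successive short-chain steps, ECHS1 and HADH, changed in opposite directions. ETFDH had a log2 fold change of 0.60 (limma, Benjamini-Hochberg adjusted p = 0.000108).

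Among 22 tested genes of fatty acid uptake, activation and carnitine transport, 12 were called higher and 4 lower. The shares over all genes tested were 32.5% and 25.9%, and the median log2 fold change of the 22 was 0.61. SLC27A3, a fatty acid transport protein, ACSL6, a long-chain acyl-CoA synthetase, and CPT1C, the brain-type form of CPT1, had the largest rises, with log2 fold changes of 1.97, 1.90 and 1.76. CPT1C went from 1.99, 2.96 and 2.97 FPKM in control to 7.85, 9.84 and 9.57 FPKM after butyrate, and so stood between CPT1B and CPT1A in level in both groups. TMLHE, the first enzyme of carnitine synthesis, CRAT, the carnitine acetyltransferase for short acyl groups, and ACSF3, the mitochondrial malonyl-CoA synthetase, had the largest falls, with log2 fold changes of -1.52, -0.98 and -0.72. CRAT had 66.1, 67.4 and 64.1 FPKM in control and 34.4, 29.8 and 36.0 FPKM after butyrate. SLC27A2 was listed at 0 in every culture.

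In peroxisomes, which shorten very long and branched chains, 7 of 15 tested genes were called higher and 1 lower. The shares over all genes tested were 32.5% higher and 25.9% lower. DECR2, EHHADH and HSD17B4 had log2 fold changes of 1.14, 1.09 and 0.74, EHHADH at a low level of 0.562 FPKM in control and 1.297 FPKM after butyrate, and its call ended with quantile normalization (0.50). ACOX2, the oxidase for branched chains and bile acid intermediates, was the gene that fell, from a mean FPKM of 17.2 to 7.84 (log2 fold change -1.14). The list had a median log2 fold change of 0.20.

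Of 21 tested regulators, 8 were called higher and 1 lower, beside 32.5% and 25.9% of all genes tested. PPARA, the nuclear receptor that drives oxidation genes in liver, was low and not called, with 0.369, 0.740 and 0.585 FPKM in control and 0.737, 1.39 and 0.949 FPKM after butyrate (log2 fold change 0.76; limma, Benjamini-Hochberg adjusted p = 0.0807). PPARD and ESRRA, at mean FPKM values of 10.04 and 12.93 in control, had log2 fold changes of -0.10 and -0.01 and were not called. The coactivator PPARGC1A and ACACB, whose product malonyl-CoA inhibits CPT1, were too low to be tested, with at most 0.0681 and 0.0912 FPKM in a culture. ANGPTL4, a secreted inhibitor of lipoprotein lipase, rose most, from 6.76, 8.35 and 8.41 FPKM to 21.8, 21.2 and 23.4 FPKM (log2 fold change 1.49). PDK4, a kinase that limits pyruvate oxidation, and RXRA, the partner receptor of PPARA, had log2 fold changes of 1.33 and 1.13. The call of PDK4, at a mean FPKM of 0.0812 in control, ended without control replicate 1 (1.06), 2 (1.44) or 3 (1.496), without butyrate replicate 1 (1.25) or 3 (1.05) and with quantile normalization (0.58), and that of RXRA ended without butyrate replicate 3 (1.01). TFAM, a factor of mitochondrial DNA, fell from a mean FPKM of 15.8 to 11.8 (log2 fold change -0.42).

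Fatty acid synthesis, the opposing pathway, gave 6 of 13 tested genes called higher and 2 lower, beside 32.5% and 25.9% of all genes tested. FADS2 and FADS1, the desaturases of polyunsaturated fatty acids, and the carbohydrate-responsive factor MLXIPL had log2 fold changes of 2.01, 1.55 and 1.94, MLXIPL from a mean FPKM of only 0.0257 to 0.364. MLXIPL was listed at 0 in 2 control cultures, and its log2 fold change was 4.18 with a pseudocount of 0.01 and 0.41 with a pseudocount of 1. The elongases ELOVL6 and ELOVL1 fell, with log2 fold changes of -0.79 and -0.57.

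**Figure D4:**
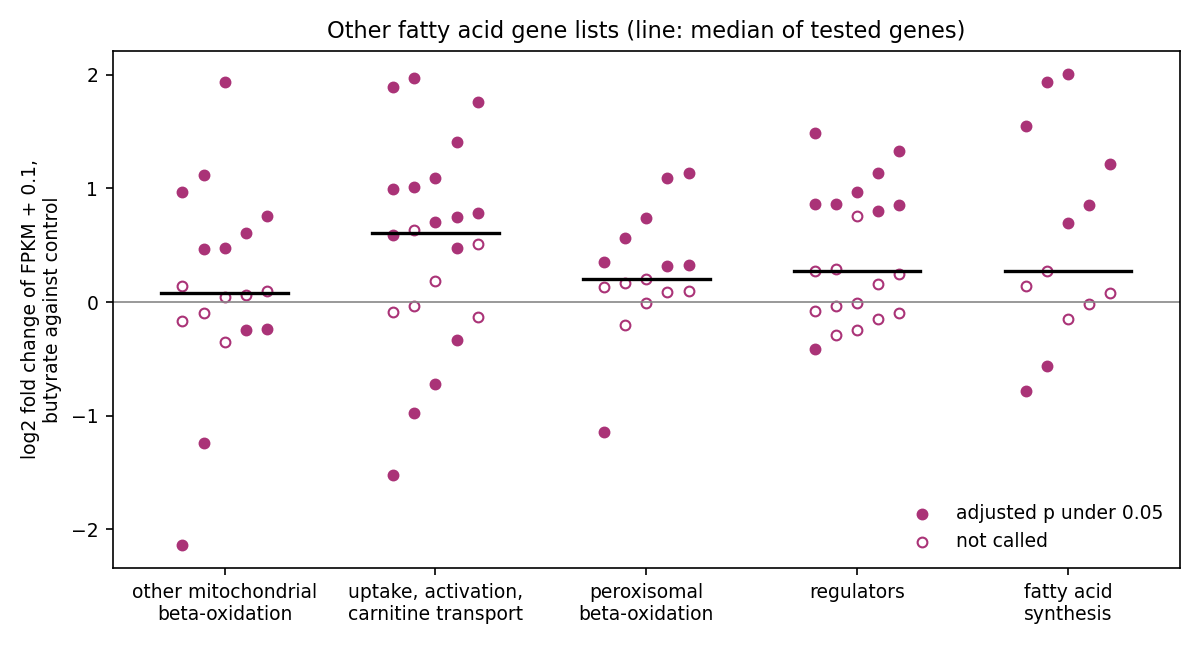
Log2 fold change of FPKM + 0.1 after butyrate of the tested genes of 5 lists (points, filled where called at an adjusted p under 0.05), with a line at the median of each list. All lists hold genes that rose and genes that fell, and the medians lie between 0.08 and 0.61, beside 0.10 over all genes tested.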

How the data were processed

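RNA from 6 REPC cultures was sequenced as paired ends on an Illumina HiSeq instrument. Per the labels and methods, the authors trimmed reads with Trim Galore 0.4.1, mapped them with STAR, kept reads with a unique position and deposited gene-level FPKM values from Cufflinks with confidence bounds. The processing notes name UMD3.1. The FPKM tables give sequence identifiers, and each was assigned the chromosome given for most of its genes in the gene tables of the study. FPKM are not counts, so these values give no depth per culture and no count test was run. The study has a mapping summary of its RNA-seq data, from which no read number is used here.

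Tables were joined by position. TNC and FOSL2, with failed estimates, were left out. log2(FPKM + 0.1) was compared by limma 3.58.1 (R 4.3.3) over the genes whose mean FPKM reached 0.1. The fit had a trend of variance on mean and no covariates. On simulated data with 200 genes changed, it called 26.9% of those changed by 0.5 log2 units, 55.2% by 1 and 72.7% by 2. It also called 2 unchanged genes, and fewer genes were changed there than were called in the data. Pairs were tested by exact permutation. A name on several rows was counted once, at its highest mean FPKM. All 10 members are named, with the 3 largest called rises and falls of each list and PPARA, PPARD, PPARGC1A, ESRRA, ACACB and PDK4. Members and lists were chosen with earlier results of these data known. The alternatives were pseudocounts of 0.01 and 1, no filter and a mean FPKM of at least 1, rescaling to TPM, quantile normalization, limma without the trend, a replicate block and the omission of each culture in turn.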

Additional observations from a re-analysis of the deposited data

How the results depend on the processing

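ACADVL, ECHS1 and ACADL kept their direction and their call under each alternative run. The fall of ECHS1 was smallest with quantile normalization (log2 fold change -0.30) and that of ACADL with TPM (-0.34). No member met the study's thresholds for a differentially expressed gene in limma in any of these runs. The call of PDK4 also ended with a pseudocount of 0.01 (2.17), and HADHA gained one without a filter on low values (-0.15; limma, Benjamini-Hochberg adjusted p = 0.0439). CPT1B has no value at a mean FPKM of at least 1. Of 527 values of single named genes, 20 lost their call, 1 gained it and none turned from a called direction to the other. No pairing by replicate number was visible. The deviations of same-numbered cultures correlated across genes at 0.0228, -0.00431 and 0.00177, and control replicates 2 and 3 correlated best with another number. Whether same-numbered cultures were handled together cannot be read from these correlations. With the replicate number as a block, 2 members were called higher and 2 lower, and the calls of CPT2 (0.16) and PDK4 (1.33) ended. Rescaling to TPM moved the median log2 fold change of all genes by 0.12 and quantile normalization by -0.13. ACADS (0.09) and ACADM (0.02), which were not called, turned positive with TPM, and the 5 called members kept their direction. The other mitochondrial genes called lower numbered 2 with TPM and 2 without the trend. Regulators called higher ranged from 5 to 8 and called lower from 1 to 2 with a replicate left out, the 5 without butyrate replicate 3 and the 2 without control replicate 3. Regulators called higher numbered 11 with TPM, 10 without the trend and 7 with quantile normalization. With TPM, 10 peroxisomal and 9 synthesis genes were called higher, and 7 and 8 with quantile normalization. With quantile normalization, the shifts of ACADS minus ACADM, ECHS1 minus HADHA and CPT1A minus CPT1B were 0.16, -0.22 and -0.87, and a pseudocount of 1 gave -0.55 for the last. Their causes were not tested. The FPKM values give no depth per culture, and the fold changes of genes under an FPKM of 1, such as CPT1B, PDK4 and MLXIPL, depend on the pseudocount.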
